A study of Rattus norvegicus with 18 samples.

Results

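The genes described here are 9 genes of the type I interferon response: Stat2, Irf1, Irf7, Irf9, Isg15, Mx1, Mx2, Ifit3 and Ifih1. They were chosen by symbol, with no threshold on a measured value, and all 9 were found among the 13188 genes of the deposited expression table. Interferons are secreted proteins that warn neighbouring cells of infection. Receptor-bound interferon activates the kinases JAK1 and TYK2, which phosphorylate STAT proteins. STAT2 and IRF9 are subunits of a complex that binds interferon-stimulated response elements and switches on antiviral effectors such as ISG15, the MX proteins and the IFIT proteins, while IRF1 and IRF7 are interferon-induced activators of the same response. The program can also be started from inside the cell, since MDA5 (Ifih1) and RIG-I (Ddx58) sense double-stranded RNA, and fibroblasts are a well-known source of interferon beta.

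RNA-seq was performed on 18 libraries of Rat1 fibroblasts of the line HO15.19, which lack functional endogenous myc, so that the cells without MYC and the cells with MYC carry the same deletion. They form 6 groups of 3 libraries. The groups without MYC are myc-/- and, with a control siRNA, myc-/- siCtrl. The groups with MYC are myc-/- + MYC and, according to the siRNA they received, myc-/- + MYC siCtrl, siAHR-2 or siAHR-5. MYC is human MYC driven by the exogenous promoter of a retroviral vector in stably infected cells, and siAHR-2 and siAHR-5 are separate siRNAs against the aryl hydrocarbon receptor (AHR), a ligand-activated transcription factor. Cells grew in 10% serum and transfected cells received 40 nM siRNA for 48 h, whereas the myc-/- and myc-/- + MYC groups were not transfected. How many clones the lines came from is not given in the sources used here, and the labels do not say whether the 3 libraries of a group came from separate cultures, so p-values measure the spread between these libraries only.

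The values are normalized expression on a log2 scale, and the columns lie on 2 different scales. One, the 6-library set, holds the groups myc-/- + MYC and myc-/- siCtrl, and the 12-library set holds the 4 that remain. The leading principal component held 74.7% of the variance and separated the sets, so groups were compared within a set only. According to the sample labels, the 6-library set pairs untransfected cells with MYC and siCtrl-transfected cells without it, and the 12-library set has the reverse. The columns of the siCtrl-transfected cells without MYC are named only as controls in the table, so their transfection rests on the sample titles and characteristics, and no value here checks it. As labelled, MYC and transfection therefore cannot be told apart in either set. They change in opposite senses in the 6-library set and in the same sense in the 12-library set. This bears on every MYC comparison here, because transfected RNA may itself act on interferon genes. The values are not per gene length, so levels are compared between groups and not between genes. Of 11 fibroblast genes, Vim and Fn1 lay at high values (group means over both scales 18.34 to 19.63 and 17.70 to 20.41), although Col1a2 lay between 3.64 and 4.08. Levels of the other fibroblast genes are not given here. Among 6 leukocyte genes, the group means of Ptprc and Itgam were at most 4.62 and 2.72, whereas those of Cd68 ran from 6.94 to 7.46 and those of Cd3e from 6.75 to 9.34. Rat Myc was lower in the cells with MYC in both sets (log2 fold change, log2FC, -1.26 and -2.68), and the human MYC transcript has no value of its own in the rat table.

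The stretches printed next are parts of the promoters of the 5 members that hold a site of the interferon system, and are shown so that the members that share a motif can be compared. They were read from RefSeq sequences of the assembly GRCr8 in a window from 250 bases before to 50 bases after the gene start, and 7 of the 9 members had an entry (Isg15 and Mx2 did not). Capitals mark the matches. The searched motifs, on both strands, were the core of the interferon-stimulated response element (ISRE; GAAA repeated after any pair of bases), the gamma-activated site (GAS; TTCNNNGAA), the E-box bound by MYC and MAX (CACGTG) and the core of the AHR site (GCGTG).
Ifih1, chr3:67683973-67684072, minus strand: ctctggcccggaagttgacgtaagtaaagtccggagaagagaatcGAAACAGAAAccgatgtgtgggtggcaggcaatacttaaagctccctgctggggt
Ifit3, chr1:241527226-241527325, plus strand: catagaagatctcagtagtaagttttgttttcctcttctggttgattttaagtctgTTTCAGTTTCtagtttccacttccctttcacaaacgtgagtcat
Irf7, chr1:205800073-205800102, minus strand: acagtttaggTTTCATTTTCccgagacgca
Irf1, chr10:38417747-38417846, plus strand: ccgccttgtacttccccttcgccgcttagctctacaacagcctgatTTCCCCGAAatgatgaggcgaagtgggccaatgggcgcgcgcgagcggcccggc
Irf9, chr15:33065722-33065751, plus strand: ctcagacCACGTGatTTCTAGGAActgcac
Ifih1, Ifit3 and Irf7 hold the ISRE core, which 3.92% of all 33469 promoters hold. Irf1 and Irf9 hold a GAS, found in 8.87% of promoters, and Irf9 also an E-box, found in 6.42%. The AHR core lies in the windows of Stat2, Irf1 and Ifit3 and in 29.7% of all promoters, and no match overlapped a match of another motif. These matches describe letters in the window and are no evidence of binding. The reads had been aligned to another build, rn6, so the coordinates belong to the sequences and not to the expression values.

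Within the 6-library set, 5 of the 9 members were lower in the cells with MYC than in the siCtrl-transfected cells without it. Stat2, Irf1, Irf7, Isg15 and Ifit3 fell, Irf9 and Ifih1 lay lower by less than the fold cutoff, and Mx1 and Mx2 had log2FC above 0 without passing. Genes that differed at least 1.5-fold, up or down, with a limma adjusted p of 0.01 or less were called. By this rule 5 of 9 members were called, all of them lower, beside 26.8% of all genes called in either direction, 14.3% lower and 12.5% higher. Over all genes, 1653 were called higher and 1884 lower as deposited, and 1799 and 1684 after quantile normalization. At an adjusted p under 0.05 without a fold cutoff limma passed 8 members and 76.2% of all genes. The median log2FC of the members was -0.83, against -0.0038 over all genes.

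**Figure D1:**
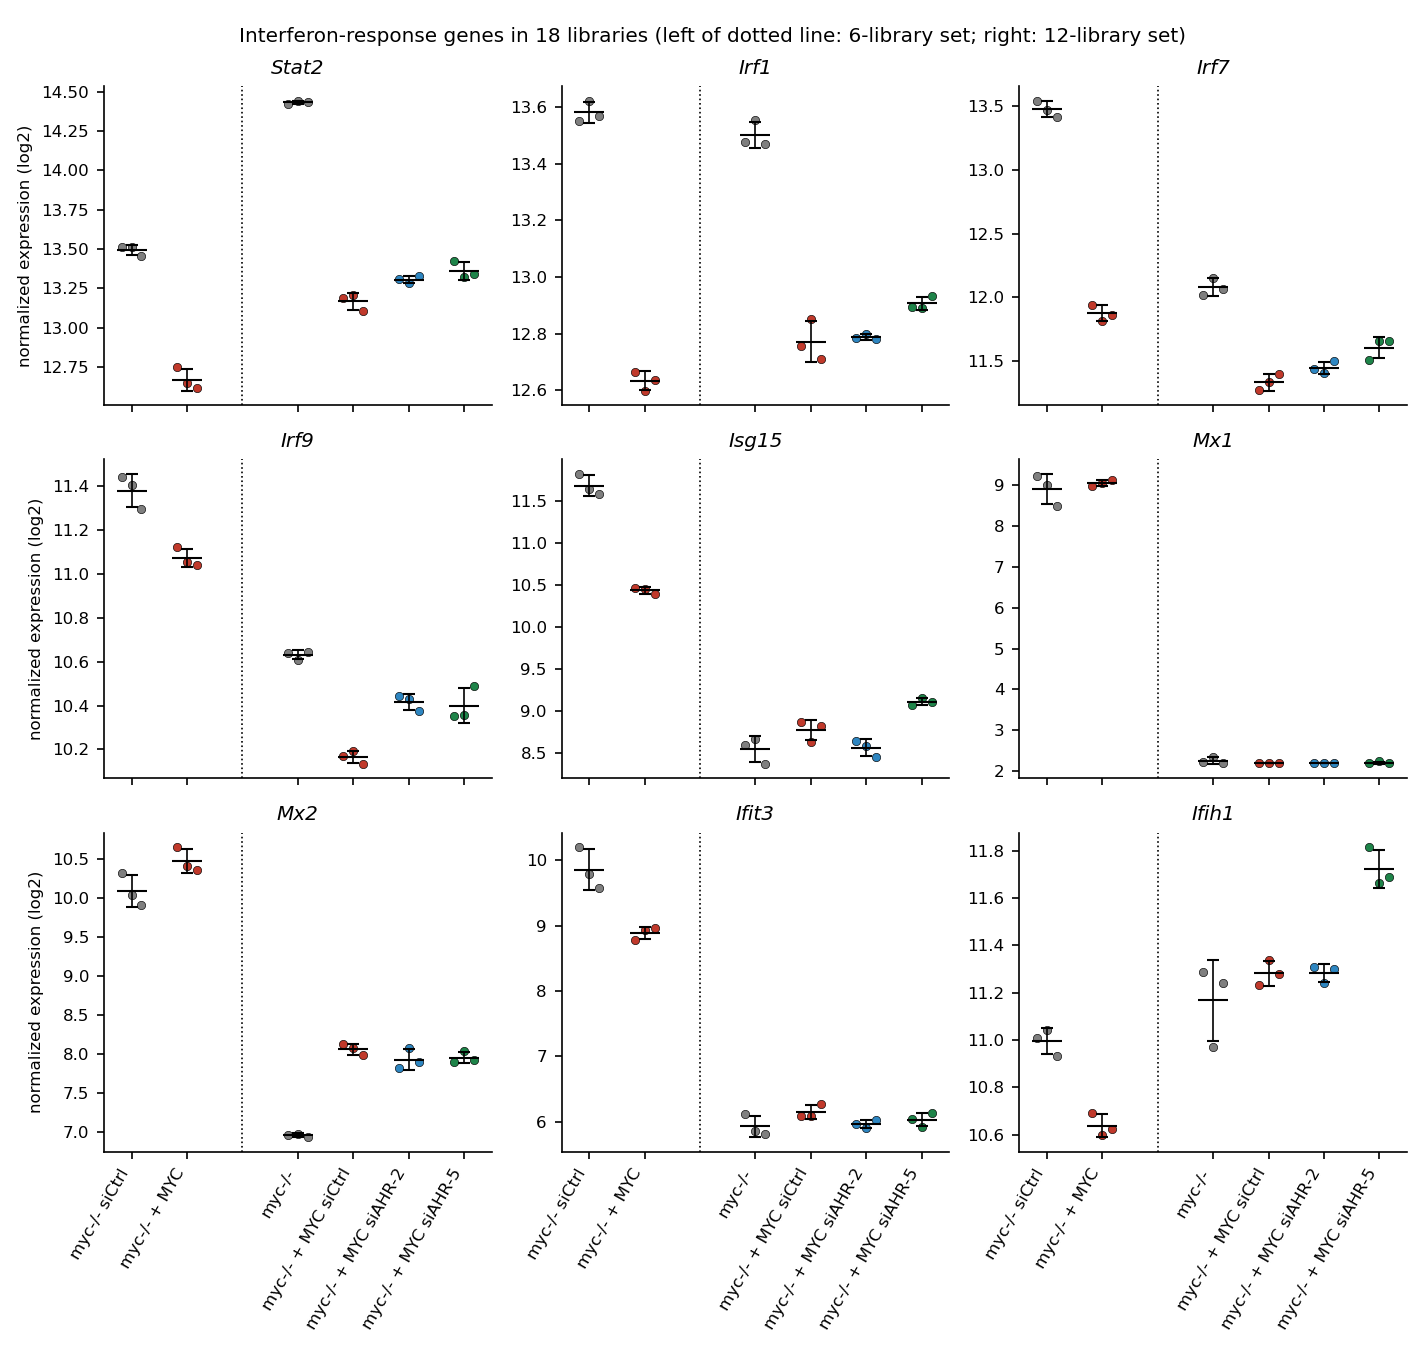
Normalized expression (log2, vertical axis, a range of its own in each panel) of the 9 members in each of the 18 libraries (points), with the mean (long line) and SD (bars) of each group of 3. The dotted line separates the 6-library set on its left from the 12-library set, whose values lie on another scale. Stat2, Irf1, Irf7 and Irf9 lie lower in the cells with MYC in both sets, and Mx1 lies within 0.05 of its lowest value, 2.19, in 11 of the 12 libraries of the 12-library set.

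Among the transcription factors, Irf7, the master regulator of type I interferon genes, had values of 13.55, 13.48 and 13.42 in myc-/- siCtrl cells and of 11.94, 11.82 and 11.87 in myc-/- + MYC cells. The groups lay far apart, and the log2FC of -1.60 (SE 0.0434, limma adjusted p = 4.92e-11) was the largest fall of the 9; 411 of all genes fell further. Irf1, an activator first found at the interferon beta promoter and with Irf9 a holder of a GAS shown above, had values of 13.55, 13.62 and 13.57 without MYC and 12.67, 12.60 and 12.64 with it (log2FC -0.95, SE 0.0330, limma adjusted p = 3.62e-10). Every library with MYC lay below every library without it. Stat2, the subunit that gives its complex with IRF9 an activating domain, lay at 13.51, 13.51 and 13.46 without MYC and at 12.75, 12.65 and 12.61 with it (log2FC -0.83, SE 0.0389, limma adjusted p = 4.43e-09). Irf9, the DNA-binding subunit of that complex, had the smallest difference of the 4. Its values were 11.44, 11.40 and 11.29 against 11.12, 11.05 and 11.04, apart without overlap but with a log2FC of -0.31 (SE 0.0481), under the fold cutoff.

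The effectors divided. Isg15, a ubiquitin-like protein that is attached to other proteins during infection, had values of 11.82, 11.64 and 11.58 without MYC and 10.47, 10.45 and 10.39 with it (log2FC -1.25, SE 0.0601, limma adjusted p = 5.38e-09). Ifit3, which with other IFIT proteins binds foreign RNA, had values of 10.20, 9.79 and 9.58 against 8.78, 8.93 and 8.96 (log2FC -0.97, SE 0.127, limma adjusted p = 2.99e-05). Both genes lay lower in every library with MYC, and Ifit3 had the wider spread, an SD of 0.315 in the myc-/- siCtrl group. The MX proteins are dynamin-like GTPases that trap viral components, and neither of their genes was lower. Mx2 lay at 10.32, 10.04 and 9.91 without MYC and at 10.65, 10.41 and 10.36 with it. All 3 libraries with MYC were above those without, with a log2FC of 0.38 (SE 0.103, limma adjusted p = 0.00528) that stayed under the fold cutoff. Mx1 had values of 9.22, 9.01 and 8.50 against 8.99, 9.06 and 9.13. The groups overlapped (log2FC 0.15, 95% confidence interval -0.17 to 0.46, limma adjusted p = 0.368), and the sign turned, to -0.057, without the myc-/- siCtrl replicate 3. Ifih1, the sensor of long double-stranded RNA, had values of 11.01, 11.04 and 10.93 against 10.69, 10.60 and 10.62. These groups did not overlap, and the log2FC was -0.36 (SE 0.0475), under the fold cutoff. Altogether 8 of 9 members had groups that did not overlap, as did 78.8% of all genes. Mx1 and Mx2, like Ifit3 and its neighbour Ifit2, are similar copies, and how reads shared by copies were counted is not given in the sources used here.

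Within the 12-library set, where the cells with MYC carried siCtrl and the cells without it were untransfected, Stat2, Irf1 and Irf7 were again lower with MYC, Mx2 rose, and Isg15, Ifit3, Ifih1 and Mx1 did not pass. By the same rule 4 of 9 members were called, 3 lower and 1 higher, beside 25.5% of all genes in either direction, 14.7% lower and 10.8% higher. The calls over all genes were 1425 higher and 1936 lower as deposited, and 1796 and 1660 after quantile normalization. At an adjusted p under 0.05 without a fold cutoff limma passed 5 members, 1 higher and 4 lower, and 64.7% of all genes. After quantile normalization, after median centring and in a fit of all 12 libraries 7 members passed, 3 higher and 4 lower. The share of all genes passing in these settings is not given here, so the rise in the count is not read as a result about the members. The median log2FC of the members was -0.063, against -0.00014 over all genes.

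Stat2 had values of 14.42, 14.44 and 14.43 in myc-/- cells and 13.19, 13.20 and 13.11 in myc-/- + MYC siCtrl cells (log2FC -1.27, SE 0.0337, limma adjusted p = 1.32e-06). The myc-/- libraries were tightly grouped and all above the others. Irf1 had values of 13.48, 13.56 and 13.47 against 12.76, 12.85 and 12.71 (log2FC -0.73, SE 0.0472, limma adjusted p = 3.92e-05), and Irf7 had values of 12.02, 12.16 and 12.07 against 11.27, 11.33 and 11.40 (log2FC -0.75, SE 0.0535, limma adjusted p = 6.02e-05). In both genes all 3 libraries with MYC lay below those without. Irf9 had values of 10.64, 10.61 and 10.65 against 10.17, 10.19 and 10.13. It lay lower in every library with MYC, by a log2FC of -0.47 (SE 0.0402, limma adjusted p = 0.000132) that missed the fold cutoff.

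Mx2 went the other way. Its values were 6.97, 6.98 and 6.94 in myc-/- cells and 8.13, 8.08 and 7.99 in myc-/- + MYC siCtrl cells (log2FC 1.10, SE 0.0534, limma adjusted p = 1.22e-05). No library with MYC came near those without. Mx1 lay at 2.23, 2.35 and 2.19 in myc-/- cells and at 2.19 in each myc-/- + MYC siCtrl library, and 11 of the 12 libraries of the set were within 0.05 of that lowest value, so no difference was measurable. Isg15 had values of 8.59, 8.66 and 8.37 against 8.86, 8.63 and 8.82 (log2FC 0.23, 95% confidence interval -0.03 to 0.49, limma adjusted p = 0.101), and Ifit3 of 6.12, 5.85 and 5.82 against 6.09, 6.09 and 6.27 (log2FC 0.22, 95% confidence interval -0.02 to 0.46, limma adjusted p = 0.0914). Both pairs of groups overlapped. Ifih1 overlapped as well, with values of 11.29, 10.97 and 11.24 against 11.23, 11.34 and 11.28 and a log2FC of 0.12 (95% confidence interval -0.11 to 0.34). Groups did not overlap in 6 of 9 members, Mx1 at its lowest value among them, and in 70.5% of all genes. Without and with MYC, the mean of Ifit3 was at or above those of 22.2% and 23.5% of all genes. In the 6-library set these shares were 39.0% and 33.9%. For Isg15 they were 31.9% and 33.0% here, and 59.0% and 43.2% in the 6-library set. What this lower rank does to the comparison was not tested.

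**Figure D2:**
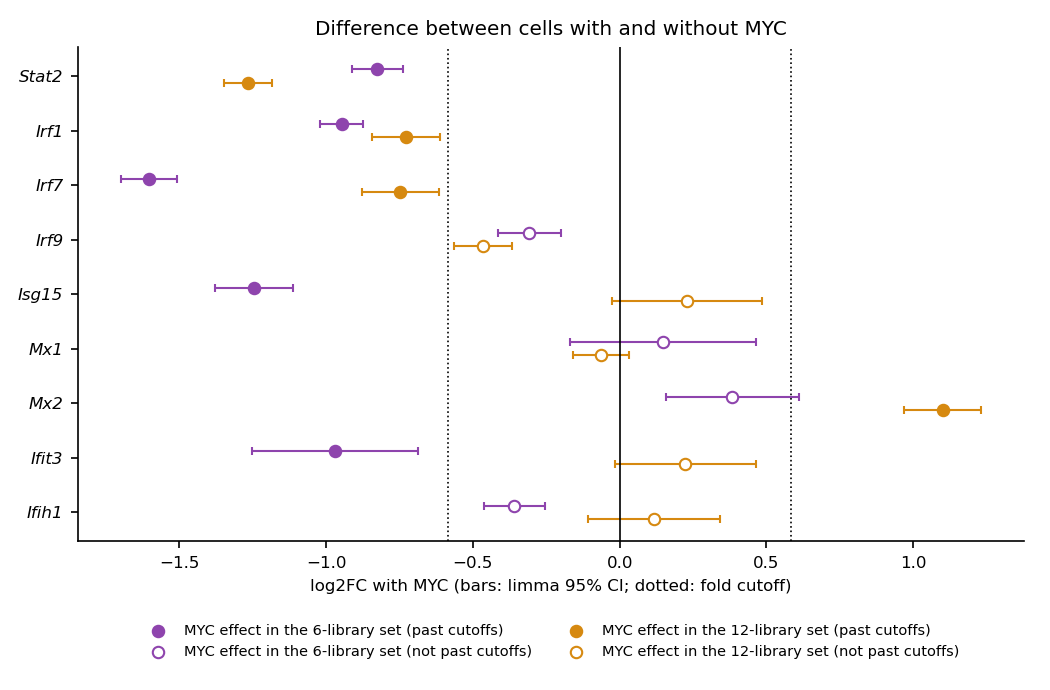
Difference between cells with and without MYC (log2FC, horizontal axis) for each member in the 6-library set (purple) and the 12-library set (orange), with limma's 95% confidence interval as bars. Filled points passed both cutoffs and dotted lines mark the fold cutoff. Stat2, Irf1 and Irf7 are filled on the left in both sets, whereas Isg15 and Ifit3 are at -1.25 and -0.97 in the 6-library set and at 0.23 and 0.22 in the 12-library set.

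Stat2, Irf1 and Irf7 were thus the 3 members called lower in both sets, as were 1175 of all 13188 genes. By the sample labels, the transfected group was the one without MYC in the 6-library set and the one with MYC in the 12-library set. The MYC effect of the 6-library set was subtracted from that of the 12-library set, and this difference was tested over the 12 libraries of the 4 groups. It passed the cutoffs for 4 of 9 members, all higher in the 12-library set, beside 16.5% of all genes in either direction, 6.79% higher and 9.67% lower. At an adjusted p under 0.05 alone it passed for 7 members and 54.9% of all genes. Over all genes the calls were 896 higher and 1275 lower as deposited, and 1148 and 1036 after median centring. The 4 were Isg15 (1.47, SE 0.122, limma adjusted p = 1.0e-07), Ifit3 (1.19, SE 0.180, limma adjusted p = 5.23e-05), Irf7 (0.86, SE 0.0741, limma adjusted p = 1.63e-07) and Mx2 (0.72, SE 0.138, limma adjusted p = 0.000457). For Irf7 the effect had the same sign in both sets and differed in size. For Stat2 the difference was -0.44, for Irf1 0.22 and for Ifih1 0.47, each with an adjusted p under 0.01 in limma but under the fold cutoff. For Irf9 it was -0.16 (limma adjusted p = 0.0721). As labelled, a MYC effect of the same log2 size in both sets cancels in this difference. An effect of transfection and a MYC effect that differs between the sets cannot be told apart in it.

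Knockdown of Ahr was compared with siCtrl within the 12-library set, where every group in the comparison was transfected and expressed MYC. Ahr itself had values of 13.34, 13.26 and 13.22 with siCtrl, 11.97, 11.97 and 12.03 with siAHR-2 and 11.95, 11.76 and 11.94 with siAHR-5 (log2FC -1.29 and -1.39). Ahr fell with both siRNAs (limma adjusted p = 0.000237 and 0.000216), and siAHR-5 differed from siAHR-2 by a log2FC of -0.11 (95% confidence interval -0.25 to 0.04, limma adjusted p = 0.211). With the replicate number as a block, the call of Ahr with siAHR-2 was lost (limma adjusted p = 0.0126) at an unchanged log2FC of -1.29. No member passed the cutoffs with either siRNA. The comparisons of the siRNAs use the same siCtrl libraries, which also entered the MYC comparison of this set, so the values are given side by side only.

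With siAHR-2, 0 of 9 members were called by limma, beside 0.470% of all genes, and the members' log2FC ran from -0.21 to 0.25. At an unadjusted p under 0.05 there were 4 (Stat2, Irf7 and Irf9 higher, Ifit3 lower). At least 29.3% of all genes passed this threshold, the share that passed an adjusted p under 0.05. Irf9 had values of 10.44, 10.43 and 10.37 with siAHR-2 against 10.17, 10.19 and 10.13 with siCtrl, so that every siAHR-2 library lay above every siCtrl library (log2FC 0.25, SE 0.0345, limma adjusted p = 0.00524). Stat2 lay at 13.31, 13.28 and 13.33 against 13.19, 13.20 and 13.11, also without overlap (log2FC 0.14, SE 0.0313, limma adjusted p = 0.0248). These 2 genes passed an adjusted p under 0.05 without a fold cutoff, as did 29.3% of all genes. Irf7 (11.44, 11.41 and 11.50) lay just above siCtrl, Irf1 (12.78, 12.80 and 12.78) and Ifih1 (11.31, 11.24 and 11.30) within its range. Isg15 (8.65, 8.59 and 8.45), Mx2 (7.82, 8.08 and 7.90) and Ifit3 (5.97, 5.91 and 6.03) had lower means than siCtrl, and of these 3 only the groups of Ifit3 did not overlap. Groups did not overlap in 4 of 9 members and in 43.3% of all genes. After median centring 2 members passed an adjusted p under 0.05 as higher and 3 as lower. Of these, Mx1 lay within 0.05 of its lowest value in these libraries, and its log2FC of -0.031 was that of the median over all genes (-0.031). The share of all genes passing in this setting is not given here.

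With siAHR-5, 0 of 9 members were called by limma, beside 2.32% of all genes, and the log2FC ran from -0.12 to 0.44. At an unadjusted p under 0.05 there were 6, all higher, and the same 6 passed an adjusted p under 0.05 without a fold cutoff, as did 39.2% of all genes. The groups of these 6 did not overlap, all lying higher with siAHR-5, beside 50.5% of all genes in either direction and 28.3% higher. Ifih1 had the largest difference, with values of 11.82, 11.66 and 11.69 with siAHR-5 against 11.23, 11.34 and 11.28 with siCtrl (log2FC 0.44, 95% confidence interval 0.31 to 0.57, limma adjusted p = 0.00206). Isg15 lay at 9.07, 9.15 and 9.11 against 8.86, 8.63 and 8.82 (log2FC 0.34, limma adjusted p = 0.0157). Both sensor and effector lay above siCtrl in all 3 libraries. The 4 transcription factors lay higher by less. Irf7 had values of 11.51, 11.65 and 11.66 (log2FC 0.27), Irf9 of 10.35, 10.36 and 10.49 (0.23), Stat2 of 13.43, 13.32 and 13.34 (0.20) and Irf1 of 12.89, 12.89 and 12.93 (0.13, limma adjusted p = 0.0492). Mx2 (7.91, 8.04 and 7.93) and Ifit3 (6.04, 5.93 and 6.13) overlapped siCtrl, and Mx1 lay between 2.19 and 2.23 with either siRNA and with siCtrl. Scaling moved these small differences. With quantile normalization 4 members passed an adjusted p under 0.05 as higher and 1, Mx2, as lower, and with each library centred on its median 5 passed as higher and 1, Mx1, as lower. Mx1 lay within 0.05 of its lowest value in these libraries, and its log2FC after centring (-0.046) was that of the median over all genes (-0.046). The share of all genes at an adjusted p under 0.05 in these settings is not given here. Over all genes, the calls with siAHR-5 were 194 higher and 112 lower as deposited, 127 and 126 after quantile normalization and 140 and 165 after median centring. With siAHR-2 they were 21 and 41 as deposited and 15 and 53 after median centring.

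**Figure D3:**
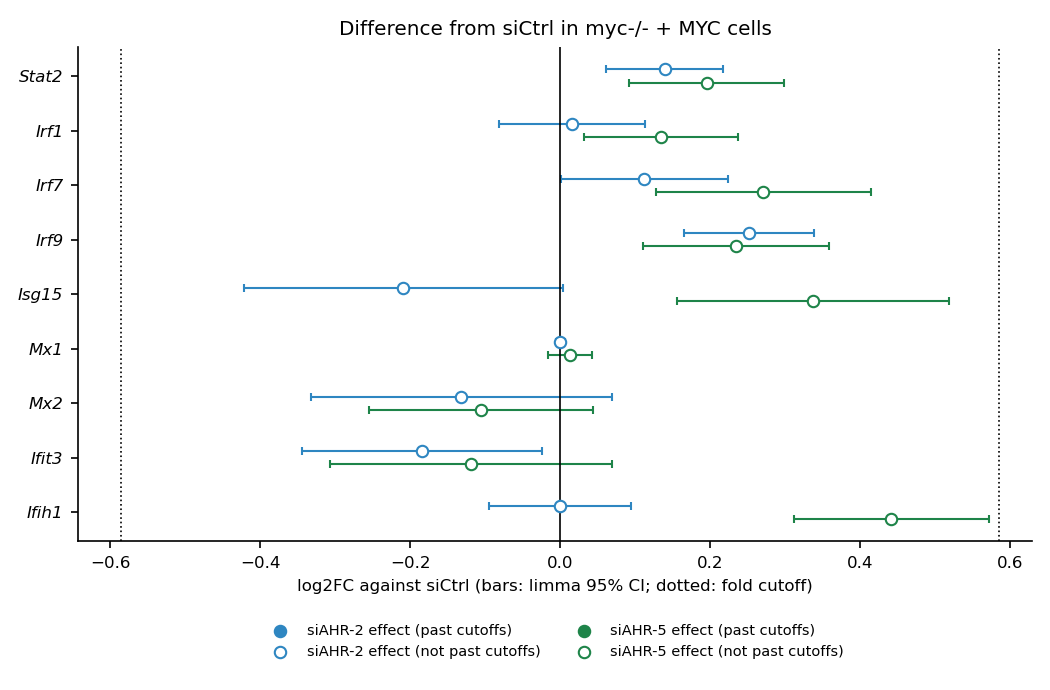
Difference from siCtrl (log2FC, horizontal axis) of each member with siAHR-2 (blue) and siAHR-5 (green) in myc-/- + MYC cells, with limma's 95% confidence interval as bars. Dotted lines mark the fold cutoff, which no member reached. The 2 siRNAs, which share the siCtrl libraries, lie on opposite sides of 0 for Isg15 (-0.21 and 0.34).

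The siRNAs were also compared with each other, which uses no siCtrl library. Here 0 of 9 members were called by limma, beside 2.18% of all genes. At an unadjusted p under 0.05 there were 4 (Irf1, Irf7, Isg15 and Ifih1, all higher with siAHR-5). At least 39.1% of all genes passed that threshold, the share with an adjusted p under 0.05. Isg15 differed by a log2FC of 0.55 (95% confidence interval 0.39 to 0.70, limma adjusted p = 0.00172), just under the fold cutoff, and passed it at 0.59 without the siAHR-2 replicate 1. Ifih1 differed by 0.44 (95% confidence interval 0.32 to 0.56, limma adjusted p = 0.00147). In both genes all siAHR-5 libraries lay above all siAHR-2 libraries. Groups did not overlap in 4 of 9 members, all higher, beside 49.5% of all genes in either direction and 27.2% higher, and at an adjusted p under 0.05 alone 3 members passed (Irf1, Isg15 and Ifih1), as did 39.1% of all genes. Irf9 differed by -0.017 (95% confidence interval -0.14 to 0.11) and Stat2 by 0.056 (95% confidence interval -0.026 to 0.14), with overlapping groups.

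The other genes of the interferon pathway were taken from 7 lists by role, and 85 of 115 listed genes were in the table. With MYC, 7 of these 85 rose, 23 fell and 55 did not pass in the smaller set (median log2FC -0.26), and 15 rose, 15 fell and 55 did not pass in the larger set (median 0.023), so 35.3% were called in each, beside 26.8% and 25.5% of all genes. Of 8 receptors and kinases 5 fell in each set, beside 14.3% and 14.7% of all genes called lower. Tyk2, a kinase of the type I receptor, lay higher by less than the fold cutoff (log2FC 0.58 in the 6-library set and 0.26 in the 12-library set). In both sets 4 of the 8 fell, as did 1175 of all 13188 genes, and these are Jak2, a kinase of the interferon gamma receptor (log2FC -1.26 in the 6-library set and -1.57 in the 12-library set), Ifnar1, a subunit of the type I receptor (-0.80 and -0.77), Ifngr1, a subunit of the interferon gamma receptor (-0.85 and -0.95), and Il10rb, shared by interferon lambda and IL-10 receptors (-1.05 and -0.98). Jak1 fell in the 6-library set (-0.79) and did not pass in the 12-library set, where its log2FC was -0.27. Tyk2, Ifnar1, Ifngr1, Il10rb and Jak1 were chosen for naming after their values were seen, as were Irf8 and Irf3.

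Counts in the next 4 lists are given beside 26.8% of all genes called in the smaller set and 25.5% in the larger. Of 8 other transcription factors, 1 rose and 3 fell in the smaller set and 1 fell in the larger. Irf8 fell in both (log2FC -0.75 and -0.62), and Irf3, which is activated by the RNA sensors, rose in the 6-library set (1.02) and had a log2FC of 0.14 in the 12-library set. Of 12 sensors and adaptors, 1 rose and 1 fell in the smaller set, and 3 rose and 2 fell in the larger. Ddx58, the RIG-I sensor, rose in the 12-library set (1.72), against 0.47, under the fold cutoff, in the 6-library set. Of 4 genes for ISG15 conjugation 1 was called, higher in the 12-library set, and of 8 negative regulators 1 rose and 1 fell in the smaller set and 1 rose and 2 fell in the larger. Ptpn6, a phosphatase that dampens JAK signalling, rose in both (1.45 and 0.74). Of 11 interferon genes searched for by symbol 1 was found, Ifna4, which lay at 0.70 or less in every library.

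The 44 other antiviral effectors formed the longest list. In the smaller set 4 rose and 13 fell, beside 12.5% and 14.3% of all genes, and in the larger set 10 rose and 5 fell, beside 10.8% and 14.7%. Cmpk2, a nucleotide kinase induced by interferon (1.90 and 2.14), and Ifitm1, a membrane protein that blocks viral entry (1.15 and 2.39), rose in both, while Ifitm3 of the same family fell in both (-1.04 and -1.33). Rsad2, the antiviral enzyme viperin, fell in the 6-library set (-1.75), where the 12-library set gave -0.090. Cxcl11, a chemokine, and Gbp4, a guanylate-binding GTPase, fell in the 6-library set (-1.53 and -1.46), where the 12-library set gave -0.15 and 0.28, neither past the cutoffs. Ifit2, the neighbour of Ifit3, fell by 3.15 on the log2 scale in the 12-library set and lay lower by less than the fold cutoff in the 6-library set (-0.50). Oasl, a relative of the oligoadenylate synthetases, and the chemokine Cxcl10 were the 2 listed genes that fell in the 6-library set (-1.01 and -1.02) and rose in the 12-library set (1.42 and 1.34), as did 28 of all 13188 genes. The difference between the sets passed the cutoffs for 20 of the 44 effectors, 19 of them higher in the 12-library set and 1, Ifit2, lower (-2.65), beside 6.79% of all genes higher and 9.67% lower.

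With siAHR-2, 1 of the 85 genes was called and fell, beside 0.311% of all genes called lower. This was Oasl, with values of 7.93, 7.82 and 7.89 against 8.75, 8.49 and 8.54 with siCtrl (log2FC -0.71, SE 0.0817, limma adjusted p = 0.00303). The call was lost without any 1 of the siAHR-2 libraries or without the siCtrl replicate 3, where the adjusted p lay between 0.0112 and 0.0173. It was also lost with the replicate number as a block, at an unchanged log2FC (limma adjusted p = 0.0149), where 0 of the 85 genes were called. The number of the 85 genes called, all lower, was 2 after quantile normalization and 3 after median centring, and ran from 0 (without the siAHR-2 replicate 2 or the siCtrl replicate 3) to 2 (without the siCtrl replicate 1 or 2) when single libraries were left out. With siAHR-5, 7 rose and 0 fell (8.24%, against 2.32% of all genes in either direction and 1.47% higher), all of them effectors, and the median log2FC of the 85 was 0.17 against 0.013 over all genes. The count was 5 after quantile normalization and 6 after median centring. Gbp5, a guanylate-binding protein (0.82), Trim21, an intracellular antibody receptor (0.76), and Cmpk2 (0.75) rose most. Between the siRNAs 7 were higher with siAHR-5, beside 1.33% of all genes called higher, and 0 lower, led by Oasl (1.18), Cxcl10 (0.82) and Ifi27l2b (0.76).

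**Figure D4:**
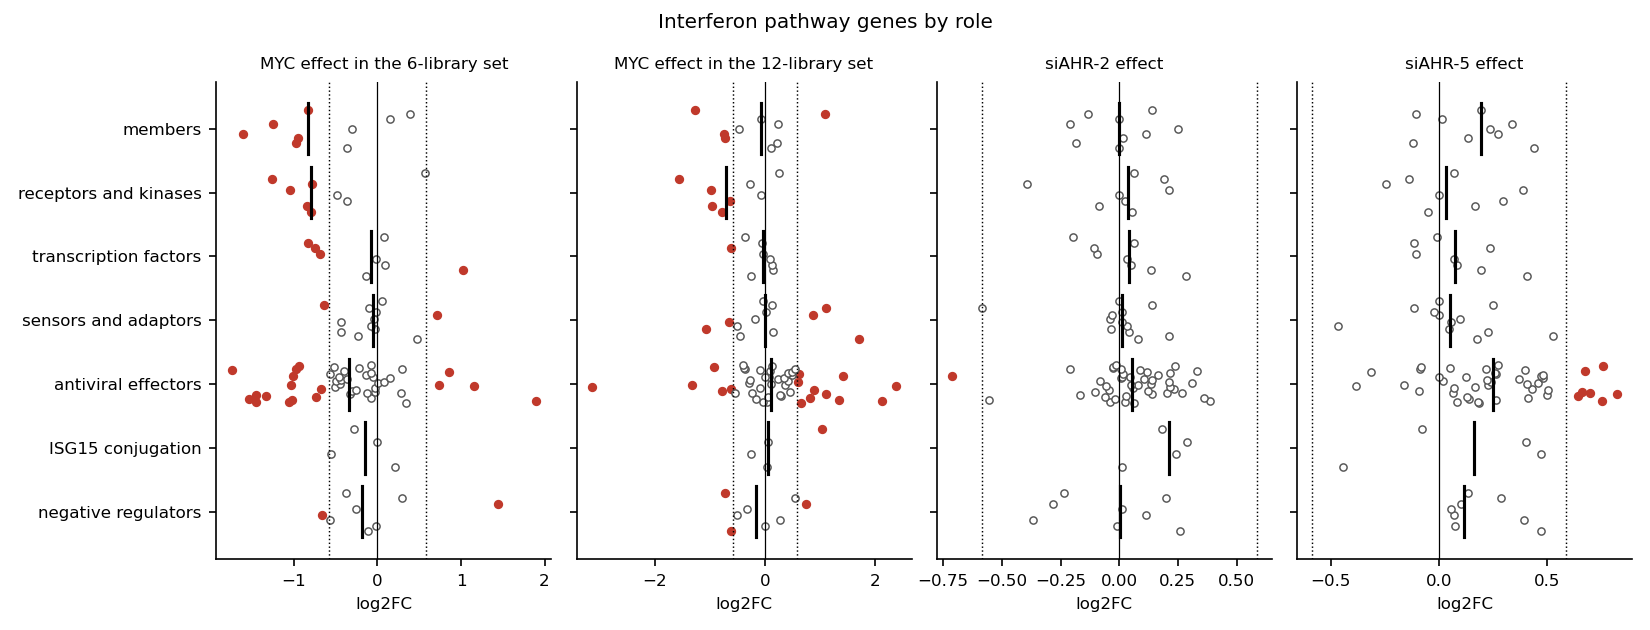
Log2FC (horizontal axis, a range of its own in each panel) of the 9 members and of the other interferon pathway genes by role in 4 comparisons, one point per gene. Red points passed both cutoffs, bars mark the median of each list and dotted lines the fold cutoff. The effectors lie mostly left of 0 in the 6-library set, where 13 fell and 4 rose, and the 7 genes that rose with siAHR-5 are all effectors.

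Across the 12 libraries of the larger set, the members did not all vary together. Stat2 had Pearson correlations of 0.99 with Irf1, 0.95 with Irf7 and 0.84 with Irf9, and of -0.99 with Mx2, while Isg15 had 0.74 with Ifih1 and -0.44 with Stat2. These coefficients describe 12 libraries of 4 groups that share their siRNA and MYC groups, and mostly repeat the group means. Many genes shared the pattern of Stat2, since 1539 genes had a coefficient above 0.95 with it. The nearest were Alx1 and Hcn2 (both 0.998, and 0.990 and 0.991 over the 6 libraries of the other set). For Irf1 the nearest were Tcn2 and Nfkbia (both 0.996, and 0.996 and 0.997), for Irf7 Cdc42se1 and Gsdmd (0.988 and 0.987, and 0.962 and 0.997), and for Irf9 Phc1 and Hmox1 (0.973 and 0.967, and 0.933 and 0.966). The 6 libraries hold only 2 groups, which did not overlap in 78.8% of all genes, so that a coefficient there gives mainly the direction of the group difference. For Isg15 the nearest were Pabpc4 and Pex26 (0.957 and 0.953, and -0.992 and -0.994). For Mx2 the nearest was Ppard (0.992, and 0.772), for Ifih1 they were Spag9 and Qrich1 (0.963 and 0.959, and -0.924 and 0.902) and for Ifit3 Ogfod2 and RGD1305587 (0.864 and 0.849, and -0.894 and 0.467). Mx1 lay at its lowest value in this set, so its nearest genes, Sorcs3 and Itgad (0.966 and 0.964), follow values at that floor.

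Some markers of cell types were also called between cells with and without MYC. Their counts stand beside 26.8% of all genes called in the 6-library set and 25.5% in the 12-library set. Among 6 leukocyte markers 1 was called in the 6-library set, Cd3e (log2FC -2.09). The summed level of the list (log2 of the sum) was 9.86 to 9.95 in myc-/- siCtrl and 8.81 to 8.92 in myc-/- + MYC cells. Sums add values off the log scale, so the highest genes of a list weigh most, and Cd3e enters this sum. The 12-library set again had Cd3e (-1.13), with sums of 8.78 to 8.88 in myc-/- and 8.31 to 8.46 in myc-/- + MYC siCtrl cells. The defining marker Ptprc lay at or below 4.65 in every library. No marker was exactly at 0, but lowest values differ by gene here (2.19 for Mx1), so this does not show detection. The epithelial marker Krt8 rose in both sets (1.70 and 1.17), with sums of its 4-gene list of 6.62 to 6.73 without and 7.94 to 8.03 with MYC in the 6-library set, and of 7.78 to 7.93 and 8.78 to 9.11 in the 12-library set. The endothelial marker Tek, 1 of 4, rose in the 6-library set (1.61), where the list's sums were 8.09 to 8.20 without and 8.44 to 8.53 with MYC, and those of the 12-library set were 9.28 to 9.43 and 9.51 to 9.63. Of 11 fibroblast markers 6 were called in the 6-library set, 1 higher and 5 lower. In the 12-library set 7 were, all lower, the largest log2FC being -5.95. Of all genes 14.3% and 14.7% were called lower. Sums of the fibroblast list were 20.82 to 20.84 without and 19.90 to 19.99 with MYC in the 6-library set. In the 12-library set they were 21.95 to 22.18 and 20.23 to 20.25. With siAHR-2 no marker of the 4 lists was called, beside 0.470% of all genes. With siAHR-5 1 of 11 fibroblast markers was, higher, beside 1.47% of all genes called higher. Between the siRNAs 2 of 11 fibroblast markers were called, both higher with siAHR-5, beside 1.33% of all genes called higher. In such bulk samples fewer cells of a type and less RNA per cell cannot be told apart, and the part of these genes in the results was not tested.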

How the data were processed

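RNA-seq data of 18 libraries in 6 groups were analysed. The authors aligned reads to rn6 with HISAT2 2.1.0, removed genes with few reads and normalized with DESeq2. Per library, the authors deposited log2 values of normalized expression for each of 13188 genes. Their label is log CPM, yet off the log scale they sum to 86.3 to 161 times the CPM total, so the transformation and depth are unknown, and no counts or intervals from depth are given. Strand marking and the read counter are not given in the sources used here. Groups and replicate numbers came from the sample labels. Differences were tested with limma 3.58.1 in R 4.3.3 (mean-variance trend, no filter, only the groups compared) and Benjamini-Hochberg adjustment over all genes. The cutoffs were a 1.5-fold difference and an adjusted p of 0.01. Fits were tested on simulated data. Alternatives were an adjusted p below 0.05 alone, no trend, quantile normalization, median centring, a filter on mean log2 values below 1, a pseudocount of 1, a replicate block, all 12 libraries in one fit, and leaving out each library. Named were all members, per comparison up to 3 pathway genes with the largest rise and 3 with the largest fall without overlap, Ahr and Myc, and the 2 genes most correlated with each member. Some genes the rule names are not reported here. Members and lists were chosen with earlier results of these data known. Sequences are from RefSeq (GRCr8). Python 3.11.15 and matplotlib 3.10.9 drew the figures.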

Additional observations from a re-analysis of the deposited data

Results flagged for a closer look

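The MYC effect differed between the 2 sets for 4 of the 9 genes by a test of the difference itself (limma, log2 scale, the effect in the 12-library set less that in the 6-library set). The difference was 0.86 for Irf7, which fell with MYC in both sets, and 1.47 for Isg15 and 1.19 for Ifit3, which fell in the 6-library set and did not pass in the 12-library set. It was 0.72 for Mx2, which rose in the 12-library set and lay higher by less than the fold cutoff in the 6-library set. By the sample labels the transfected group was the one without MYC in the 6-library set and the one with MYC in the other. The sets also lie on different scales. An effect of scale, an effect of transfection and a MYC effect that differs between the sets therefore cannot be told apart in these differences.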

How the results depend on the processing

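The depth of the libraries is unknown, Mx1 lies at its lowest value in the 12-library set, and 3 libraries per group limit what small differences can show. With an adjusted p below 0.05 and no fold cutoff, the number of members called was 8 in place of 5 for MYC in the 6-library set, 2 in place of 0 with siAHR-2, 6 in place of 0 with siAHR-5, 3 in place of 0 between the siRNAs and 7 in place of 4 for the difference of the MYC effects. The remaining settings, leaving out libraries aside, kept these counts within 1.5 times. Signs turned only for differences that were not called. With quantile normalization the log2FC was -0.0050 for Mx1 and -0.026 for Ifih1 with siAHR-2, -0.079 for Mx2 between the siRNAs, 0.016 for Rsad2 with MYC in the 12-library set and -0.053 for Ptpn6 with siAHR-5. With median centring it was -0.015 for Irf1, -0.031 for Mx1 and -0.031 for Ifih1 with siAHR-2, -0.046 for Mx1 with siAHR-5, and -0.015 for Mx1 and -0.0028 for Mx2 between the siRNAs. The cause was not tested.

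Leaving out each library in turn gave 0 to 1 called members between the siRNAs, where Isg15 passed without the siAHR-2 replicate 1. The log2FC ran from -0.057 to 0.30 for Mx1 and from -0.051 to 0.018 for Ifi27l2b with MYC in the 6-library set. With siAHR-2 it ran from -0.016 to 0.056 for Irf1, from -0.00011 to 6.4e-05 for Mx1, from -0.025 to 0.027 for Ifih1 and from -0.11 to 0.013 for Ifitm1, and with siAHR-5 from -6.9e-05 to 0.020 for Mx1. Between the siRNAs it ran from -0.062 to 0.0076 for Irf9, from -7.0e-05 to 0.020 for Mx1, from -0.030 to 0.097 for Mx2, from -0.15 to 0.039 for Ifit2 and from -0.087 to 0.0085 for Myc.

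With the replicate number as a replicate block the number of members called was 5 and 4 for MYC in the 6-library and 12-library sets, 0 with either siRNA and between them, and 4 for the difference, as without it. The labels do not say that a number marks a shared culture or day, so the numbers were not treated as pairs. Deviations of same-numbered libraries had mean correlations of -0.029, -0.014, 0.010, 0.097 and 0.089 in the 5 comparisons of groups. Means of the highest correlation with another number were 0.056, 0.19, 0.032, 0.050 and 0.024. The same-number mean was thus the larger for siAHR-5 against siCtrl and between the siRNAs. Under the block the calls of Oasl and Ahr with siAHR-2 were lost (limma adjusted p = 0.0149 and 0.0126), with 0 calls over all genes in place of 62.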
